A study of Mus musculus with 138 samples.

Results

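The suture mesenchyme (SM) of the sagittal suture was compared with the SM of the frontal suture in C57BL/6J mouse embryos at E18.5, the last stage studied before birth. Both are midline sutures: the frontal suture lies between the paired frontal bones and the sagittal suture between the paired parietal bones. The comparison takes every library labelled E18.5, SM and sagittal (5 embryos) and every library labelled E18.5, SM and frontal (5 embryos), which are 10 of the 138 samples of the series. The series profiled SM and osteogenic fronts (OF, the growing bone edges) of calvarial sutures at E16.5 and E18.5 by laser capture microdissection and RNA-seq, with no engineered allele or treatment named for these groups. It also holds 16 control libraries, in which complete E18.5 frontal, sagittal, coronal and lambdoid sutures were each prepared once under each of 4 letters in the titles (C, IF, L and S), which are taken here as library sets. The sagittal embryos came from 2 litters (embryos 1 to 3 and embryos 4 and 5) and the frontal embryos from 3 litters (embryos 1, 2 and 4, embryo 3, and embryo 5), with no litter shared between the sutures.

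Sutures are the fibrous joints of the skull roof, where undifferentiated mesenchyme keeps 2 bone edges apart while supplying them with bone-forming cells. The frontal bones form from cranial neural crest and the parietal bones from paraxial mesoderm, whereas the mesenchyme between the parietal bones is largely of neural crest origin. Position along the skull is encoded by transcription factors of the Zic, Tfap2, Alx, Msx and Twist families, and retinoic acid, BMP, FGF, Wnt and hedgehog signals regulate when the mesenchyme turns into bone.

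The genes that differed included both transcription factors and secreted signals. Zic1 and Zic4, zinc-finger factors of dorsal midline patterning, are neighbours on chromosome 9 and were both higher in sagittal SM. Pax1, a paired-box factor known from the developing vertebral column and pharyngeal pouches, was also higher, and Aldh1a2, the main enzyme of embryonic retinoic acid synthesis, was among the genes most strongly reduced. The 300 bases from 250 before to 50 after the RefSeq start of these 4 genes (GRCm38.p6, written 5′ to 3′ on the strand of the gene) are shown to put both Zic neighbours side by side and to show the start of 1 strongly higher and 1 strongly lower gene. Capitals mark GGGCGG, the GC box, and GCCNNNGGC, the core bound by AP-2 factors, on either strand. Zic1 lies at chr9:91365719-91366018 on the minus strand and Zic4 at chr9:91368722-91369021 on the plus strand, so their starts point away from each other and are 3204 bases apart. Pax1 lies at chr2:147364744-147365043 and Aldh1a2 at chr9:71215539-71215838, both on the plus strand.
Zic1: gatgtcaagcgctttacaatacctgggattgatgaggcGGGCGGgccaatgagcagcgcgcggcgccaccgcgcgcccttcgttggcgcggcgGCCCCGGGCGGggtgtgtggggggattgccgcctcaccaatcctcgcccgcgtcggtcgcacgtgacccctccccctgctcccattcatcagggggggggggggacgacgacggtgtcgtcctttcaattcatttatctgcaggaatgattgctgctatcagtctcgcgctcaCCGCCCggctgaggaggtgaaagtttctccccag
Zic4: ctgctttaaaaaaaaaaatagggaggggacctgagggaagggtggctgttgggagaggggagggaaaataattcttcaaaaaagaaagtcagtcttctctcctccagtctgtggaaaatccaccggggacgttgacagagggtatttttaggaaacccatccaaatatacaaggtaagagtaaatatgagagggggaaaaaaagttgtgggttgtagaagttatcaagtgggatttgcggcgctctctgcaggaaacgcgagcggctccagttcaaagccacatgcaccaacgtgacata
Pax1: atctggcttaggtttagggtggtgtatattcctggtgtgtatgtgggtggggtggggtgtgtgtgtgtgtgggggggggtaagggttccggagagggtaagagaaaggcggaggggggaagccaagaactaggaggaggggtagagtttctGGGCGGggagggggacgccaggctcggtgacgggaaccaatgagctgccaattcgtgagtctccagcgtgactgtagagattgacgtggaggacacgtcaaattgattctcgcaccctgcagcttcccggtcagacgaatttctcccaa
Aldh1a2: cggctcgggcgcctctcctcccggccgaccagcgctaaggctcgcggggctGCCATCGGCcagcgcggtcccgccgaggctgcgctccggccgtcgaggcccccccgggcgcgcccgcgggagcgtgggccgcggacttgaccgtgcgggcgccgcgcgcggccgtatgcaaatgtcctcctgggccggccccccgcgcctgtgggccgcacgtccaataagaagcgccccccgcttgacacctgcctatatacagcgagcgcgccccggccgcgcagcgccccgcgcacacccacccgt
The Zic1 window held 3 GC boxes, 1 of which overlapped its AP-2 core, and 31 CpG dinucleotides, against a median of 7 over 32851 mouse promoters of the same length. The Zic4 window held neither motif and 8 CpG dinucleotides, the Pax1 window 1 GC box and the Aldh1a2 window 1 AP-2 core and 50 CpG dinucleotides. Of all promoters in the table, 35.7% held GGGCGG and 16.6% held GCCNNNGGC, so these matches describe sequence only.

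The libraries held 13162255 to 16295927 counts in sagittal SM and 7487020 to 11934879 in frontal SM, so that every sagittal library was deeper than every frontal library. All values below are CPM, counts relative to the library total, which was scaled by TMM factors of 0.926 to 1.07. The label of SM was borne out by low osteoblast markers. The summed level of 10 osteoblast markers was 23.1 to 217 CPM in frontal SM and 82.4 to 396 CPM in sagittal SM. It was 1910 to 8340 CPM in frontal OF and 11000 to 22200 CPM in the parietal OF of the sagittal suture. The summed level of 10 suture mesenchyme markers, among them Col3a1, Postn, Pdgfra and Twist1, was 11300 to 13300 CPM in frontal SM and 7800 to 9510 CPM in sagittal SM. This sum is given for SM only and does not bear on the label. Sagittal embryos 1 to 3 stood apart from sagittal embryos 4 and 5 in several marker lists, among them the brain and erythroid lists. The summed brain neuron and glia markers reached 296 to 396 CPM in embryos 1 to 3 against 90.9 and 105 CPM in embryos 4 and 5, with 149 to 200 CPM in frontal SM. The summed erythroid markers reached 1350 to 4740 CPM against 188 and 199 CPM, with 158 to 1160 CPM in frontal SM. The same split was seen in the parietal OF of these embryos, with 183 to 274 CPM against 111 and 112 CPM for the brain list. Both lists thus split the sagittal embryos by litter. The endothelial sum of SM also did, at 248 to 274 CPM in embryos 1 to 3 against 177 and 232 CPM in embryos 4 and 5.

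**Figure D1:**
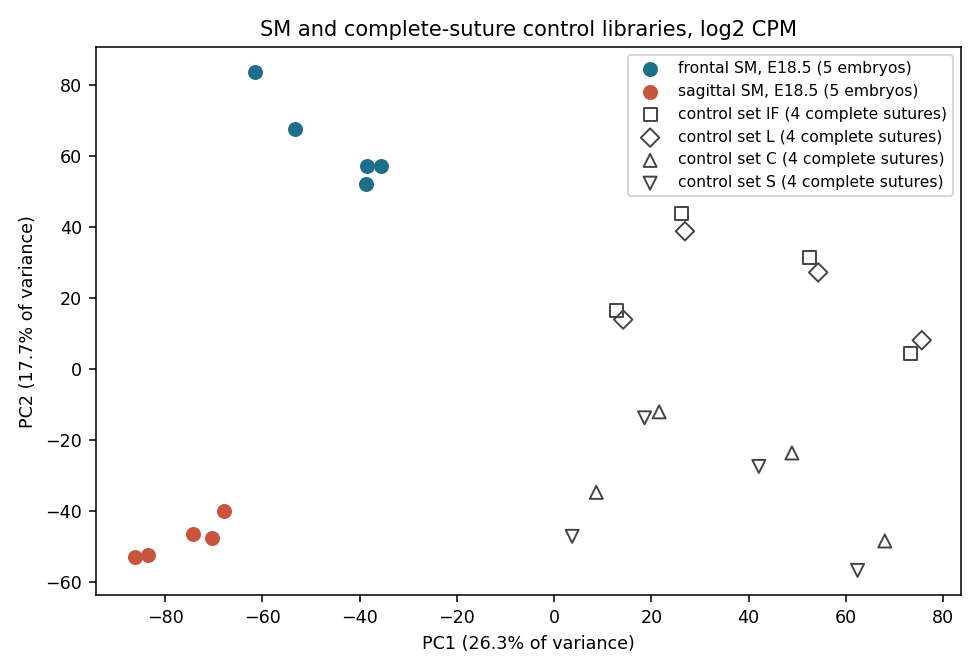
Principal components of log2 CPM for the 10 SM libraries (filled) and the 16 complete-suture control libraries (open, shaped by library set); each point is 1 library and the axes give component scores with the share of variance. Sets IF and L lie above 0 on PC2 with frontal SM, and sets C and S lie below 0 with sagittal SM.

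The first question was how much of the difference between the 2 groups was shared with the library sets. In a principal component analysis of these 26 libraries, PC2 (17.7% of the variance) placed control sets IF and L on the side of frontal SM and control sets C and S on the side of sagittal SM, for all 4 complete sutures. The labels do not explain the letters. Titles of captured frontal libraries carry the letters IF and those of captured sagittal libraries S, and from these letters alone frontal SM was assigned to set IF and sagittal SM to set S. Every value less the offset rests on this assignment, and PC2 alone does not separate IF from L or S from C. Within the controls, set S differed from set IF at 1213 of 19768 genes tested (6.14%, edgeR's quasi-likelihood test, adjusted p under 0.05), 888 higher and 325 lower in set S. The difference between the sutures was therefore fitted in 2 ways: directly, and with the mean log2 difference of set S over set IF across the 4 complete sutures taken off (the set offset). A gene is described below as higher or lower in both fits only where it passed an adjusted p of 0.05 with the same sign in each.

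Directly, 3507 genes (17.7% of 19768) differed between sagittal and frontal SM, 2143 higher (10.8%) and 1364 lower (6.9%) in sagittal SM, or 1915 and 1697 with median-ratio size factors. With the set offset taken off, 214 genes (1.08%) passed, 90 higher (0.455%) and 124 lower (0.627%), and 1516 had an unadjusted p under 0.05. In both fits 199 genes (1.01%) passed with the same sign, 87 higher (0.44%) and 112 lower (0.567%), and 184 of these were protein coding. Of the 3507 genes called directly, 939 (26.8%) also had a called set offset in the same direction, 1 had one in the opposite direction and 490 changed sign once the offset was taken off. The 5 sagittal and 5 frontal libraries did not overlap at 185 of the 199 genes, against 25.5% of all genes tested. Little overlap follows from the selection, since the 199 genes were called on these same libraries. The count less the offset depended on the libraries that set the spread and the offset: it was 2016 with the SM and control libraries alone in the fit and 35 with the offset taken from the complete frontal and sagittal controls only. Directly, the SM libraries alone gave 7250. Leaving out sagittal embryos 1 to 3 left 2243 genes called directly, 133 with the offset taken off and 121 in both. Scaling by total counts in place of TMM moved the median over all genes from 0.0096 to 0.21 in the offset fit, and the split there from 90 higher and 124 lower to 143 higher and 56 lower. Directions of modest changes in that fit are therefore relative to the scaling.

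**Figure D2:**
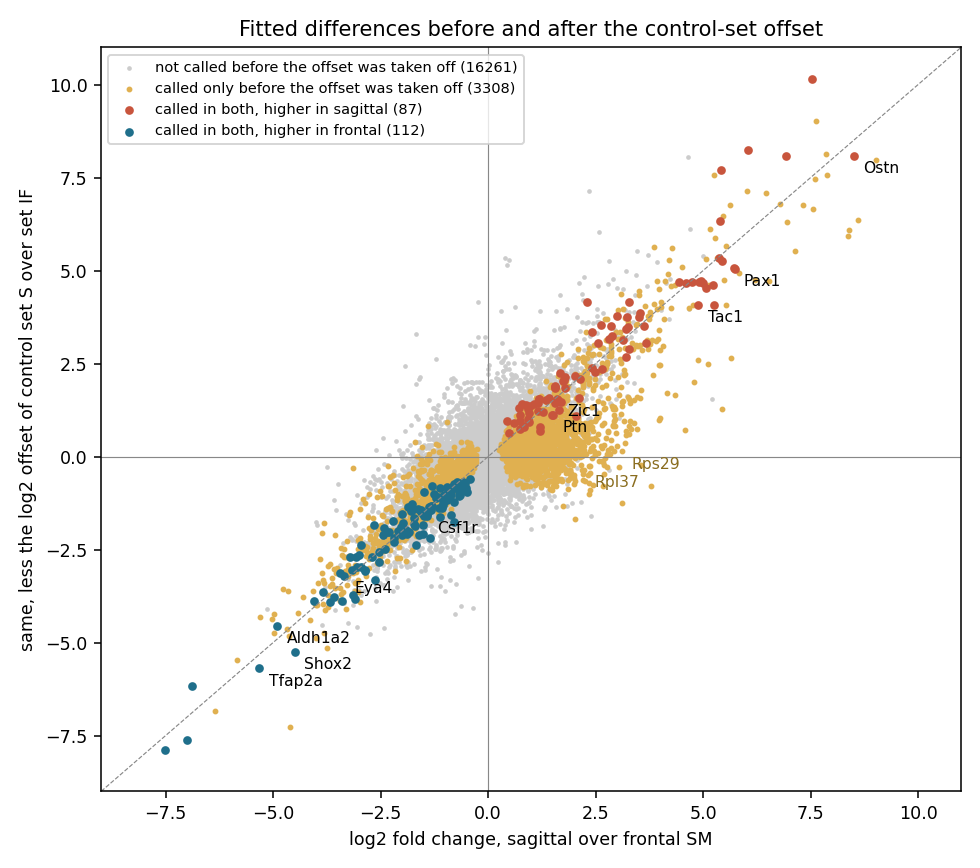
Fitted log2 fold change of sagittal over frontal SM for each of 19768 genes (x axis) against the same value less the log2 offset of control set S over set IF (y axis); the dashed line marks equality. The 87 genes higher and 112 genes lower in both fits lie along the line, whereas the ribosomal protein genes Rps29 and Rpl37 fall to about 0 on the y axis.

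Ribosomal protein genes showed the size of the set offset. Of 33 cytoplasmic ribosomal protein genes, 32 (97%, against 10.8% of all genes) were higher in sagittal SM in the direct fit, with a median log2 fold change of 1.54 against -0.02 over all genes. Their median set offset was 1.61, and none passed once it was taken off (edgeR, median -0.12, or 0.08 under total counts; 2 had an unadjusted p under 0.05). Rps29 was at 20.7, 28.4, 24.9, 24.0 and 26.1 CPM in frontal SM and at 181, 185, 220, 238 and 229 CPM in sagittal SM. In complete frontal suture it was at 33.2 and 30.5 CPM in sets IF and L and at 297 and 151 CPM in sets C and S, and complete sagittal suture followed the sets in the same way. Twist1, the bHLH factor whose loss of function causes coronal synostosis, had part of its difference in the set offset. It was at 23.7 to 30.5 CPM in frontal SM and 78.4 to 110 CPM in sagittal SM, a direct log2 difference of 1.89 (SE 0.19, adjusted p = 2.11e-13). Its set offset was 1.13 (adjusted p = 1.19e-05), and 0.73 (SE 0.26, adjusted p = 0.22) remained. Within each control set, however, Twist1 was higher in complete sagittal suture (85.3, 35.5, 38.3 and 85.0 CPM in sets C, IF, L and S) than in complete frontal suture (36.0, 17.7, 23.3 and 41.7 CPM), by 0.99 on the log2 scale (adjusted p = 0.00108).

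Among 51 tested skull patterning transcription factors, 13 were higher and 12 lower in sagittal SM directly (49% called, against 17.7% of all genes), with a median log2 fold change of 0.06. In both fits 6 were higher (Zic1, Zic4, En1, Meis2 and Nr2f1 among them) and 2 were lower (Shox2 and Tfap2a), 15.7% against 1.01% of all genes. Under total counts 7 were higher and none lower in both fits, where 120 and 53 of all 19768 genes were. With only sagittal embryos 4 and 5, 2 were higher and none lower in both fits, where 48 and 73 of all genes were. Zic1 was at 109, 80.0, 93.6, 112 and 107 CPM in the 5 frontal embryos and at 297, 277, 290, 288 and 338 CPM in the 5 sagittal embryos. Every sagittal embryo was above every frontal embryo, and the 3.04-fold direct difference (log2 1.6, SE 0.19, adjusted p = 1.54e-10) was 2.93-fold with the set offset taken off (log2 1.55, SE 0.27, adjusted p = 7.72e-05). Zic4 was at 43.8, 18.3, 29.5, 41.1 and 47.3 CPM in frontal and 153, 149, 161, 168 and 148 CPM in sagittal SM, again without overlap. The log2 difference of Zic4 was 2.15 (SE 0.38, adjusted p = 6.85e-06) directly and 2.07 (adjusted p = 0.0212) less the offset, and the latter lost its call without frontal embryo 2 (adjusted p = 0.0687). The Zic1 and Zic4 gene models overlap over 3398 bases on opposite strands and reads were counted without regard to strand, so part of the reads of one may belong to the other.

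Zic2 was at 9.90 to 15.7 CPM in frontal and 7.73 to 17.4 CPM in sagittal SM (direct log2 difference 0.03, SE 0.29, adjusted p = 0.967). Zic5, its neighbour on chromosome 14, was at 30.4 to 44.8 CPM in frontal and 20.5 to 26.0 CPM in sagittal SM (log2 -0.73 directly, adjusted p = 0.0118, but -0.57 with adjusted p = 0.758 less the offset). Zic2, Zic4 and Zic5 were named after their values were seen.

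Pax1 was at 0.742, 0.219, 1.16, 0.330 and 1.57 CPM in frontal SM and at 46.0, 45.3, 40.4, 38.7 and 34.6 CPM in sagittal SM, so that the lowest sagittal embryo lay far above the highest frontal embryo. The difference was 52.7-fold directly (log2 5.72, SE 0.71, adjusted p = 7.38e-10) and 33.5-fold less the offset (log2 5.07, SE 0.91, adjusted p = 0.000168). En1, the engrailed factor of the midbrain-hindbrain boundary and of dermal and calvarial mesoderm, was at 4.45 to 9.54 CPM in frontal and 22.3 to 36.3 CPM in sagittal SM. Nr2f1 (COUP-TFI), an orphan nuclear receptor, was at 2.30 to 3.63 CPM and 12.7 to 17.6 CPM, and Meis2, a TALE homeobox cofactor, at 20.7 to 43.7 CPM and 67.1 to 80.0 CPM. Their log2 differences less the offset were 1.57 (adjusted p = 0.0468), 2.28 (adjusted p = 0.00528) and 1.23 (adjusted p = 0.0117). None of these 3 ranges overlapped between the sutures. The offset-corrected call of En1 was lost when any 1 of sagittal embryos 1, 2, 4 or 5 or frontal embryos 1, 2 or 4 was left out (adjusted p = 0.0503 to 0.122), and that of Meis2 without frontal embryo 2 (adjusted p = 0.0554). With sagittal embryos 4 and 5 alone, Zic4, En1, Meis2 and Nr2f1 kept their direct calls (adjusted p = 9.03e-07 to 0.00146) but missed the threshold less the offset (adjusted p = 0.0577 to 0.0907). En1, Meis2 and Nr2f1 were named after their values were seen.

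**Figure D3:**
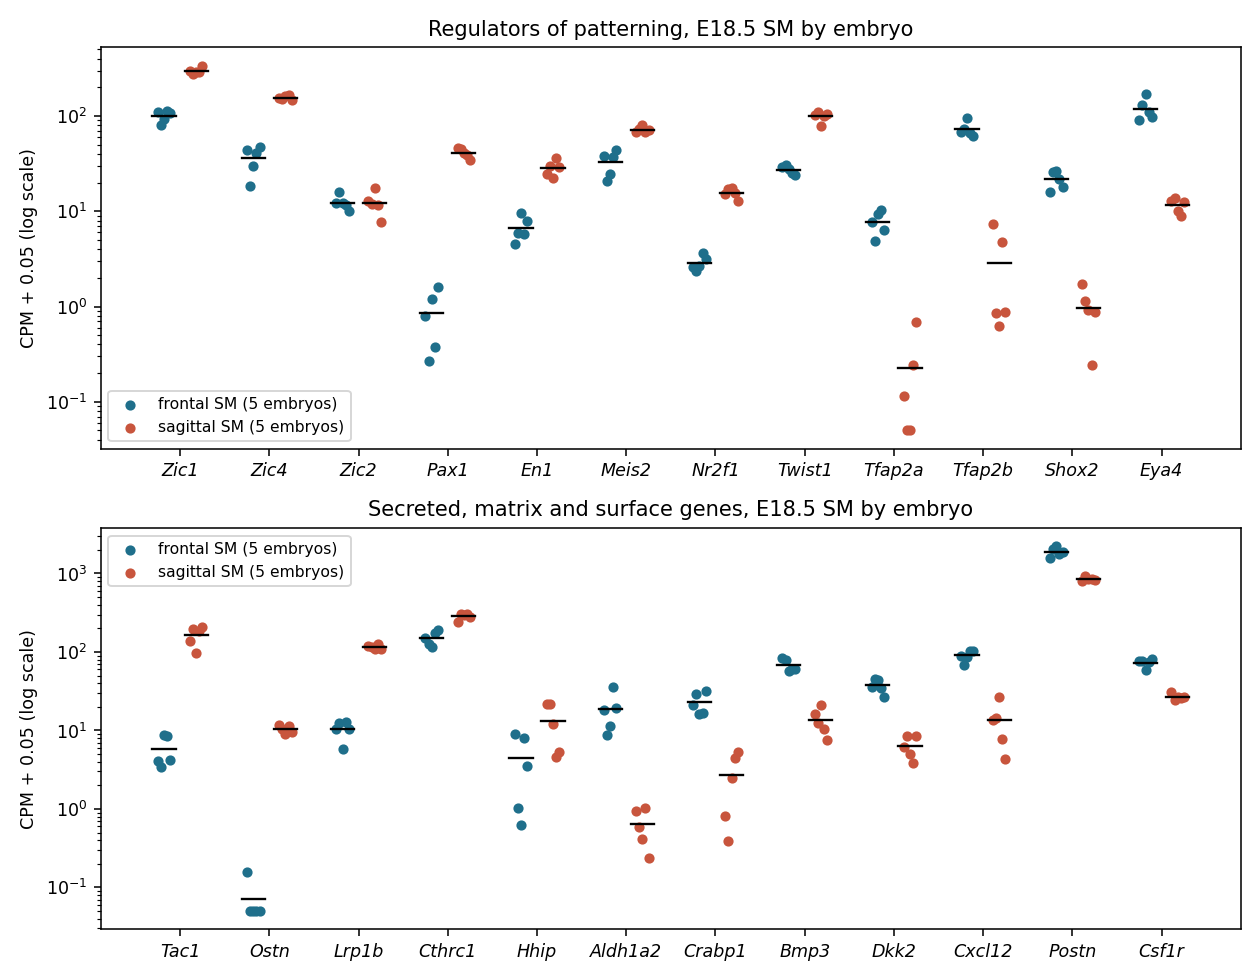
CPM of 24 genes in E18.5 SM (y axis, log scale, 0.05 added), with 1 point per embryo, frontal in blue and sagittal in red, and a bar at the mean. The upper panel holds regulators of patterning, the lower panel secreted, matrix and surface genes and the intracellular retinoic acid genes Aldh1a2 and Crabp1. Pax1, Ostn and Aldh1a2 are at or near 0 in one suture, and Zic2 and Hhip overlap between the sutures.

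In the opposite direction, Tfap2a (AP-2α), a regulator of neural crest and facial development, was at 7.74, 4.81, 9.39, 10.3 and 6.27 CPM in frontal and 0.0642, 0, 0, 0.195 and 0.633 CPM in sagittal SM. Its paralog Tfap2b was at 68.3, 72.6, 95.9, 65.7 and 61.3 CPM in frontal and 7.26, 0.809, 0.575, 4.75 and 0.823 CPM in sagittal SM. Neither overlapped between the sutures. The direct log2 differences were -5.33 (SE 1.2, adjusted p = 0.000428) and -4.64 (SE 0.77, adjusted p = 2.93e-06), and less the offset -5.69 (SE 1.5, adjusted p = 0.0377) and -3.61 (SE 1.1, adjusted p = 0.106). The direct call of Tfap2a was lost with sagittal embryos 4 and 5 alone (log2 -4.14, adjusted p = 0.0942). Shox2, a short-stature homeobox factor of limb and palate, was at 15.8, 25.6, 26.6, 22 and 17.8 CPM in frontal and 1.67, 1.08, 0.862, 0.195 and 0.823 CPM in sagittal SM, with log2 differences of -4.50 (adjusted p = 0.000941) directly and -5.25 (adjusted p = 0.0387) less the offset. The offset-corrected calls of Tfap2a and Shox2 were each lost when any 1 of 7 embryos was left out, with adjusted p of 0.0512 to 0.0858 for Tfap2a (sagittal embryos 1 to 4, frontal embryos 1, 3 and 4) and 0.0540 to 0.0848 for Shox2 (sagittal embryos 2 to 5, frontal embryos 2 to 4). Eya4, a phosphatase and transcriptional coactivator, held in every fit that left out 1 embryo. It was at 90.6, 130, 169, 110 and 98.6 CPM in frontal and 12.7, 13.8, 10.1, 8.85 and 12.4 CPM in sagittal SM, with log2 differences of -3.34 (SE 0.41, adjusted p = 3.39e-10) directly and -3.20 (SE 0.55, adjusted p = 6.04e-05) less the offset.

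Other factors known from calvarial growth had smaller values, and most were not called. Alx4 was at 110 to 137 CPM in frontal and 77.7 to 105 CPM in sagittal SM, with a direct log2 difference of -0.37 (SE 0.16, adjusted p = 0.103). Runx2, the master regulator of osteoblasts, was at 383 to 437 CPM and 359 to 426 CPM (log2 -0.05, SE 0.13, adjusted p = 0.856), and Sp7, which acts after it, at 3.18 to 32.8 CPM and 12.4 to 30.1 CPM (log2 0.20, SE 0.29, adjusted p = 0.723). Lmx1b, a LIM-homeobox factor, was at 31.1 to 54.7 CPM and 46.1 to 59.6 CPM (log2 0.14, SE 0.32, adjusted p = 0.832). Six2, a factor of progenitor mesenchyme, was lower in sagittal SM directly (38.9 to 61.7 against 74.8 to 120 CPM, log2 -0.82, adjusted p = 0.018). The call was lost without sagittal embryo 1 (adjusted p = 0.0717) or frontal embryo 2 (adjusted p = 0.0770) and not made less the offset (adjusted p = 0.438). Of 33 Hox genes, 1 (Hoxd8) passed the filter on low counts, and it was not called.

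The precursor of substance P, Tac1, was at 4.03, 3.39, 8.67, 8.49 and 4.21 CPM in frontal and 136, 197, 97.7, 186 and 211 CPM in sagittal SM. All sagittal embryos were far above all frontal embryos, 29.4-fold directly (log2 4.88, SE 0.62, adjusted p = 1.55e-09) and 16.9-fold less the offset (log2 4.07, SE 0.80, adjusted p = 0.000791). Ostn, which encodes the peptide osteocrin, was at 0.106, 0, 0, 0 and 0 CPM in frontal and 11.8, 10.4, 8.84, 11.5 and 9.50 CPM in sagittal SM. A single read in all 5 frontal libraries stood against 787 in the sagittal libraries, a ratio of depth-scaled sums of 513 (95% exact interval 91.7 to 2.03e+04, counting error only). Lrp1b, a large endocytic receptor of the LDL receptor family, was at 10.4, 12.4, 5.78, 12.7 and 10.4 CPM in frontal and 119, 114, 109, 126 and 109 CPM in sagittal SM (log2 3.74, SE 0.92, adjusted p = 0.0153 less the offset, or 3.76, adjusted p = 0.0743, with sagittal embryos 4 and 5 alone). Fgf12, an intracellular FGF-like protein that modulates sodium channels, rose from 0.106 to 0.437 CPM in frontal to 5.38 to 12.1 CPM in sagittal SM (log2 4.66, adjusted p = 4.94e-06 less the offset).

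Other genes named among the 12 strongest rises, predicted gene models aside, were the adhesion protein genes Ctnna2 (αN-catenin) and Tenm2 (teneurin), the receptor phosphatase gene Ptprt, the small GTPase gene Diras2, the AMPA receptor partner gene Shisa6 and the long noncoding RNA Rmst. Ctnna2 was at 0.109 to 1.07 CPM in frontal and 9.50 to 23.4 CPM in sagittal SM, and Tenm2 at 0.289 to 2.74 CPM and 21.7 to 77.5 CPM. Vstm2a, which encodes a secreted immunoglobulin-domain protein, was at 0 to 0.784 CPM and 8.23 to 20.6 CPM. Ctnna2 was at 19.1, 23.3 and 23.4 CPM in sagittal embryos 1 to 3 and at 9.50 and 9.56 CPM in embryos 4 and 5, where brain markers were low. Tenm2 was at 77.5, 59.8 and 65.7 CPM and at 27.0 and 21.7 CPM, and Shisa6 at 25.5, 22.1 and 16.2 CPM and at 34.6 and 37.1 CPM. Ctnna2 and Tenm2 were thus lower, and Shisa6 higher, in embryos 4 and 5, and the part of brain tissue in these values was not tested. With these 2 sagittal embryos alone, all 6 of these genes and Vstm2a stayed past the threshold directly, whereas less the offset Ctnna2 (adjusted p = 0.00869) and Shisa6 (adjusted p = 0.0233) did and Tenm2, Ptprt, Diras2, Rmst and Vstm2a did not (adjusted p = 0.0949 to 0.172). The offset-corrected calls of Vstm2a and Ptprt were also lost without any 1 of sagittal embryos 1 or 2 or frontal embryos 2, 3 or 4 for Vstm2a (adjusted p = 0.0569 to 0.0759), and frontal embryos 1, 3 or 4 for Ptprt (adjusted p = 0.0503 to 0.0538).

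A separate group of neuronal genes was high in the sagittal embryos of the first litter. Neurod6, a factor of cortical neurons, was at 8.99, 13.9 and 25.2 CPM in sagittal embryos 1 to 3, at 0 in embryos 4 and 5, and at 0.106 CPM or 0 in frontal SM. Tubb3, neuronal β-tubulin, was at 14.6, 11.5 and 26.9 CPM in embryos 1 to 3 and at 0.0651 and 0 CPM in embryos 4 and 5, with 0 to 0.742 CPM in frontal SM. Mpped1 and the neuronal RNA-binding protein gene Elavl3 split in the same way, at 8.61 to 19 CPM in embryos 1 to 3 against 0 to 0.190 CPM in embryos 4 and 5. The direct calls of Neurod6, Tubb3, Mpped1 and Elavl3 (log2 8.40, 5.74, 7.86 and 7.53, adjusted p of 1.41e-05 to 0.00214) rest on embryos 1 to 3: with embryos 4 and 5 alone the log2 differences were -1.82, -2.29, -1.80 and 1.13 (adjusted p = 0.542 to 0.827). Elavl3 and Tubb3 also passed less the offset with all embryos (adjusted p = 0.0338 and 0.0317). The call was lost without sagittal embryo 2 or 3 or frontal embryo 2, 3 or 5 for Elavl3 (0.0524 to 0.0661) and without sagittal embryo 1 or 3 or frontal embryo 1, 2, 3 or 5 for Tubb3 (0.0531 to 0.12). Of the 12 tested brain markers, 8 were higher and 1 lower directly with all embryos (75%, against 17.7% of all genes). With embryos 4 and 5 alone 2 were higher and 2 lower, where 1589 and 654 of all 19768 genes were. The 2 higher markers were Stmn2 and Nes. Stmn2, a neuronal microtubule regulator, was at 21.8 and 18.8 CPM in embryos 4 and 5 against 0.547 to 2.01 CPM in frontal SM (direct log2 difference with these 2 embryos 4.41, adjusted p = 1.09e-05, and 3.21, adjusted p = 0.129, less the offset). Nes (nestin), the intermediate filament of neural progenitors, was at 36.1 to 40.1 CPM in embryos 1 to 3, 27.1 and 40.9 CPM in embryos 4 and 5 and 6.56 to 15.4 CPM in frontal SM (direct log2 difference with embryos 4 and 5 alone 1.66, adjusted p = 0.000706). Less the offset Nes was not called (log2 0.73, adjusted p = 0.79). The glial glutamate transporter gene Slc1a3 went the other way, at 34.5 to 43.6 CPM in sagittal and 111 to 151 CPM in frontal SM (log2 -1.82, SE 0.27, adjusted p = 1.67e-06 less the offset). The part of brain tissue in the direct differences of the first litter was not tested beyond these values.

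Of 17 tested retinoic acid pathway genes, 2 were higher and 3 lower in sagittal SM directly (29.4% called, against 17.7% of all genes) and 2 were lower in both fits (11.8%, against 1.01%). Aldh1a2 was at 18.1, 8.64, 11.3, 35.9 and 19 CPM in frontal and 0.899, 0.540, 0.359, 0.976 and 0.190 CPM in sagittal SM, without overlap. The difference was 30.2-fold directly (log2 -4.92, SE 0.69, adjusted p = 3.03e-08) and 23.5-fold less the offset (log2 -4.55, SE 0.87, adjusted p = 0.000545). Its relative Aldh1a3 was at 2.89 to 11.5 CPM in frontal and 0.0642 to 0.781 CPM in sagittal SM (log2 -3.53, adjusted p = 5.26e-05 directly, -3.00, adjusted p = 0.101 less the offset). Crabp1, which binds retinoic acid in the cytoplasm, was at 16.3 to 32.1 CPM in frontal and 0.337 to 5.32 CPM in sagittal SM (log2 -3.83, adjusted p = 0.0360 less the offset). Without any 1 of sagittal embryos 1 to 3 or frontal embryos 2 or 5 the call of Crabp1 less the offset was lost (adjusted p = 0.0605 to 0.0903). Both Aldh1a2 and Crabp1 also mark neighbouring tissues, meninges and dermis, and these lists are given below.

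In the BMP and TGF-β pathway, 8 of 43 tested genes were higher and 12 lower in sagittal SM directly (46.5% called, against 17.7% of all genes, median log2 -0.42), and 1 was higher and 2 lower in both fits (6.98%, against 1.01%). Bmp3, a BMP ligand that restrains bone formation, was at 84.3, 78.3, 57.1, 60.8 and 61.4 CPM in frontal and 16.1, 12.5, 21.3, 10.4 and 7.54 CPM in sagittal SM, with no overlap (log2 -2.30, adjusted p = 1.69e-07 directly, -2.02, adjusted p = 0.00819 less the offset). Tgfbr2, the type II TGF-β receptor, was at 289 to 342 CPM and 146 to 175 CPM (log2 -0.90, adjusted p = 0.00691 less the offset), a call lost under total counts (adjusted p = 0.194) and with sagittal embryos 4 and 5 alone (adjusted p = 0.0564). The BMP targets Id2 and Id3 were higher in sagittal SM directly (log2 1.34 and 1.40), but less the offset their values were 0.89 (adjusted p = 0.114) and 0.46 (adjusted p = 0.714). Bmper, a BMP-binding endothelial regulator, overlapped: it was at 21.3, 19.2 and 11.1 CPM in sagittal embryos 1 to 3, at 4.69 and 3.23 CPM in embryos 4 and 5 and at 0 to 5.62 CPM in frontal SM. Its call in both fits (log2 2.25, adjusted p = 0.00505 less the offset) was lost with embryos 4 and 5 alone (log2 0.67, adjusted p = 0.983).

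Of 41 tested Wnt pathway genes, 4 were higher and 4 lower directly (19.5%, close to the 17.7% of all genes), and Dkk2 alone was called in both fits (2.44%, against 1.01%). Dkk2, a secreted Wnt antagonist, was at 35.5, 45.4, 44.5, 35.0 and 26.9 CPM in frontal and 6.04, 8.50, 4.96, 3.78 and 8.42 CPM in sagittal SM, without overlap. Its log2 difference was -2.53 (SE 0.37, adjusted p = 7.14e-08) directly and -2.83 (SE 0.50, adjusted p = 0.000135) less the offset. Of 16 tested hedgehog pathway genes, 3 were higher and 2 lower directly (31.2%, against 17.7% of all genes) and Hhip was called in both fits (6.25%, against 1.01%). Hhip, a hedgehog target that sequesters the ligand, was at 9.01, 0.984, 0.578, 8.0 and 3.43 CPM in frontal and 21.8, 21.5, 12.1, 4.56 and 5.26 CPM in sagittal SM. The groups overlapped, with frontal embryos 2 and 3 and sagittal embryos 4 and 5 lowest in their groups. An exact permutation test over the 10 embryos gave p = 0.0794 (two-sided, adjusted p = 0.0878 over 145 genes) against 0.00794 as the smallest p the 252 arrangements allow. The fitted log2 difference was 1.56 (adjusted p = 0.00151) directly and 1.89 (adjusted p = 0.0376) less the offset, and it fell to 0.16 (adjusted p = 0.903) directly with embryos 4 and 5 alone. Less the offset the call was also lost without any 1 of sagittal embryos 1 or 2 or frontal embryos 2, 3 or 5 (adjusted p = 0.0813 to 0.149). Gli1, the transcriptional readout of the pathway, was at 15.2, 2.95, 1.16, 15.7 and 11.9 CPM in frontal and 35.1, 24.4, 18.1, 11.5 and 9.56 CPM in sagittal SM (exact permutation p = 0.135). Ptch1, the hedgehog receptor, was not called (43.5 to 109 CPM in frontal and 40.9 to 115 CPM in sagittal SM, log2 0.14, adjusted p = 0.726). The direct call of Gli1 (log2 1.09, adjusted p = 0.00874) was lost without sagittal embryo 1, frontal embryo 2 or frontal embryo 3 (adjusted p = 0.0563 to 0.0892). Shh did not pass the filter on low counts.

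Of 24 tested FGF pathway genes, 2 were higher and 2 lower directly (16.7%, close to the 17.7% of all genes) and none passed less the offset, where 1.08% of all genes did (edgeR, 2 with an unadjusted p under 0.05). Fgf7 was at 10.8 to 24.6 CPM in frontal and 1.09 to 2.59 CPM in sagittal SM (log2 -3.29, adjusted p = 0.0016 directly, -2.28, adjusted p = 0.562 less the offset). Fgf9 was at 1.57 to 5.35 CPM and 10.3 to 19.5 CPM (log2 2.09, adjusted p = 0.0161 directly, 1.79, adjusted p = 0.681 less the offset). Fgf18, an osteogenic ligand, was at 36.5 to 52.7 CPM and 17.5 to 26.8 CPM without overlap, but missed the threshold directly (log2 -0.94, SE 0.48, adjusted p = 0.182). Efnb2, an ephrin ligand of the Notch and ephrin list, was at 38.4 to 74.3 CPM in frontal and 98.3 to 149 CPM in sagittal SM (log2 1.03, adjusted p = 0.000434 directly, 1.15, adjusted p = 0.0679 less the offset). In that list 7 of 33 were higher and 2 lower directly (27.3%, against 17.7% of all genes) and none passed less the offset, against 1.08% of all genes (edgeR, 6 with an unadjusted p under 0.05).

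Other genes named among the 12 strongest losses, predicted gene models aside, were Itih5, a hyaluronan-binding matrix protein gene, Scara5, a ferritin receptor gene, Esm1, an endothelial proteoglycan gene, Fgl2, Adamts20, a versican-cleaving protease gene, Met, the HGF receptor gene, and Shisa3. Shisa3 was at 104 to 148 CPM in frontal and 10.9 to 23.3 CPM in sagittal SM (log2 -3.05, adjusted p = 0.00117 less the offset), and Itih5 at 17.8 to 76.7 CPM and 1.08 to 4.24 CPM (log2 -3.89, adjusted p = 0.00112 less the offset). Scara5 was at 25.2 to 35.9 CPM and 1.04 to 3.85 CPM, Esm1 at 35.0 to 67.1 CPM and 1.58 to 5.60 CPM. Met was at 8.80 to 14.7 CPM and 0.456 to 2.03 CPM, Fgl2 at 5.03 to 10.3 CPM and 0.391 to 1.15 CPM, and Adamts20 at 3.04 to 10.5 CPM and 0.135 to 0.934 CPM. Less the offset, Scara5 lost its call without sagittal embryo 2, 4 or 5 (adjusted p = 0.0514 to 0.0718), Esm1 without sagittal embryo 2, 4 or 5 or frontal embryo 2 or 3 (0.0509 to 0.0715). Met lost it without sagittal embryo 4 (0.0549) and Adamts20 without sagittal embryo 1, 2 or 4 or frontal embryo 1, 2 or 3 (0.0594 to 0.104).

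Sema3d, Enpp2 and Negr1 kept their call less the offset under each of the 25 alternatives tried and were named after their values were seen. Sema3d, a guidance ligand, was at 207, 188, 300, 224 and 210 CPM in frontal and 42.0, 37.5, 35.2, 38.3 and 37.6 CPM in sagittal SM, a 5.81-fold direct difference and 5.92-fold less the offset (log2 -2.56, adjusted p = 2.07e-08). Enpp2 (autotaxin), which makes lysophosphatidic acid, was at 39.9 to 111 CPM and 8.42 to 23.7 CPM (log2 -2.18, adjusted p = 4.94e-06 less the offset). Negr1, a neuronal adhesion molecule, was at 2.62 to 11.2 CPM in frontal and 48.1 to 69.9 CPM in sagittal SM (log2 3.23, adjusted p = 1.94e-07), the reverse direction. The chemokine gene Cxcl12 was also lower in sagittal SM, at 4.31 to 26.9 CPM against 69.2 to 104 CPM (log2 -2.69, adjusted p = 0.00073 less the offset). The imprinted gene Mest was lower too, at 513 to 624 CPM against 1760 to 2560 CPM (log2 -1.36, adjusted p = 0.00131). Both were likewise named after their values were seen. Dleu2, a noncoding RNA on chromosome 14 that was likewise named after its values were seen, differed by -1.93 on the log2 scale less the offset (adjusted p = 4.22e-06), as did Kcnrg (-2.64) and Trim13 (-2.19). Dleu2 overlaps the gene models of both, so that reads of these 3 cannot be assigned to one of them with certainty.

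Among 10 suture mesenchyme markers 2 were higher (Twist1 among them) and 4 lower directly (60%, against 17.7% of all genes), and Postn and Col3a1 were lower in both fits (20%, against 1.01%). Postn (periostin) was at 1570, 2060, 2230, 1760 and 1900 CPM in frontal and 799, 919, 860, 853 and 824 CPM in sagittal SM (log2 -1.13, adjusted p = 2.75e-06 directly, -1.37, adjusted p = 0.000627 less the offset). Col3a1 was at 4220 to 5320 CPM and 2620 to 3410 CPM (log2 -0.94, adjusted p = 0.00141 less the offset), a call lost with sagittal embryos 4 and 5 alone (adjusted p = 0.0649). Of 15 small leucine-rich proteoglycan genes, 5 were lower and none higher directly (33.3% called, against 17.7% of all genes, edgeR, median log2 -0.52). Prelp was at 115 to 156 CPM in frontal and 17.6 to 36.0 CPM in sagittal SM (log2 -2.48, adjusted p = 0.000791 less the offset). Dcn (decorin) was at 1300 to 1780 CPM and 534 to 703 CPM (log2 -1.22, adjusted p = 0.000465 directly, -1.06, adjusted p = 0.24 less the offset). Mylk, myosin light chain kinase, was at 150 to 201 CPM and 24.0 to 61.5 CPM (log2 -1.90, adjusted p = 0.000152 less the offset). Acta2, smooth muscle actin, was at 114 to 232 CPM and 109 to 293 CPM (log2 0.09, adjusted p = 0.892 directly; exact permutation p = 0.937). Igfbp3, an IGF-binding protein gene, was at 377 to 475 CPM and 300 to 609 CPM (log2 0.00, adjusted p = 0.996 directly). Col8a1 was at 1740 to 2540 CPM and 785 to 1000 CPM (log2 -1.10, adjusted p = 0.0335 directly, -1.06, adjusted p = 0.688 less the offset). Its direct call was lost without sagittal embryo 1, 3, 4 or 5 or frontal embryo 3 (adjusted p = 0.0593 to 0.0997). In the osteoblast differentiation list, 5 of 31 were higher and 3 lower directly (25.8%, against 17.7% of all genes). Cthrc1, a secreted collagen regulator, was the one higher in both fits, at 243 to 307 CPM in sagittal and 114 to 189 CPM in frontal SM (log2 0.92, SE 0.19, adjusted p = 0.00117 less the offset). Ibsp, bone sialoprotein, varied from 0 to 72.0 CPM in frontal and 20.9 to 299 CPM in sagittal SM, and its direct call (log2 2.34, adjusted p = 0.0154) was lost without sagittal embryo 1 or frontal embryo 2, 3 or 5 (adjusted p = 0.0509 to 0.15). Alpl, alkaline phosphatase, was lower in sagittal SM directly, in every fit without 1 embryo (edgeR, log2 -1.69 to -0.93, adjusted p = 3.55e-05 to 0.0198). Less the offset Alpl was called lower with sagittal embryos 4 and 5 alone, but not with all embryos.

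Of 12 macrophage markers, 9 were lower in sagittal SM directly (75%, against 6.9% of all genes, median log2 -1.39 against -0.02 over all genes), and Csf1r, Mrc1, Fcer1g and C1qc were lower in both fits (33.3%, against 0.567%). Their summed level was 409 to 524 CPM in frontal and 183 to 218 CPM in sagittal SM, without overlap. Csf1r, the macrophage growth factor receptor, was at 77.1, 76.4, 58.5, 74.5 and 80.2 CPM in frontal and 30.9, 24.2, 26.9, 25.8 and 26.7 CPM in sagittal SM (log2 -1.59, SE 0.36, adjusted p = 0.00612 less the offset). Under total counts 8 were lower directly and none passed in both fits (edgeR, median -1.31 less the offset), where 1176 and 53 of all 19768 genes were lower. With sagittal embryos 4 and 5 alone 4 were lower directly and 1 in both fits, where 654 and 73 of all genes were. The call of Fcer1g less the offset (adjusted p = 0.0299) was lost without any 1 of sagittal embryos 2 to 4 or frontal embryos 2, 3 or 5 (adjusted p = 0.0535 to 0.0652). In these bulk samples fewer cells of a type and less RNA per cell cannot be told apart. The mast cell sum was 350 to 562 CPM in frontal and 90.7 to 254 CPM in sagittal SM, without overlap. Of 6 mast cell markers 1 was lower directly (Kit, log2 -1.16, adjusted p = 0.0356), which is 16.7% against 6.9% of all genes. None passed less the offset, against 1.08% of all genes (edgeR, 1 with an unadjusted p under 0.05). The call of Kit was lost under total counts (adjusted p = 0.0614) and without any 1 of sagittal embryos 2 to 5 or frontal embryos 1 to 3 (0.0532 to 0.0849). The endothelial sum was 300 to 533 CPM and 177 to 274 CPM, again without overlap. Of 11 endothelial markers 3 were lower directly (27.3%, against 6.9% of all genes: Emcn, Tek and Ptprb). Emcn was lower in both fits (9.09%, against 0.567%), at 19.6 to 45 CPM in frontal and 5.79 to 11.6 CPM in sagittal SM (log2 -2.05, adjusted p = 0.0157 less the offset). That call was lost under total counts (adjusted p = 0.0708) and with sagittal embryos 1 to 3 alone (adjusted p = 0.107).

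**Figure D4:**
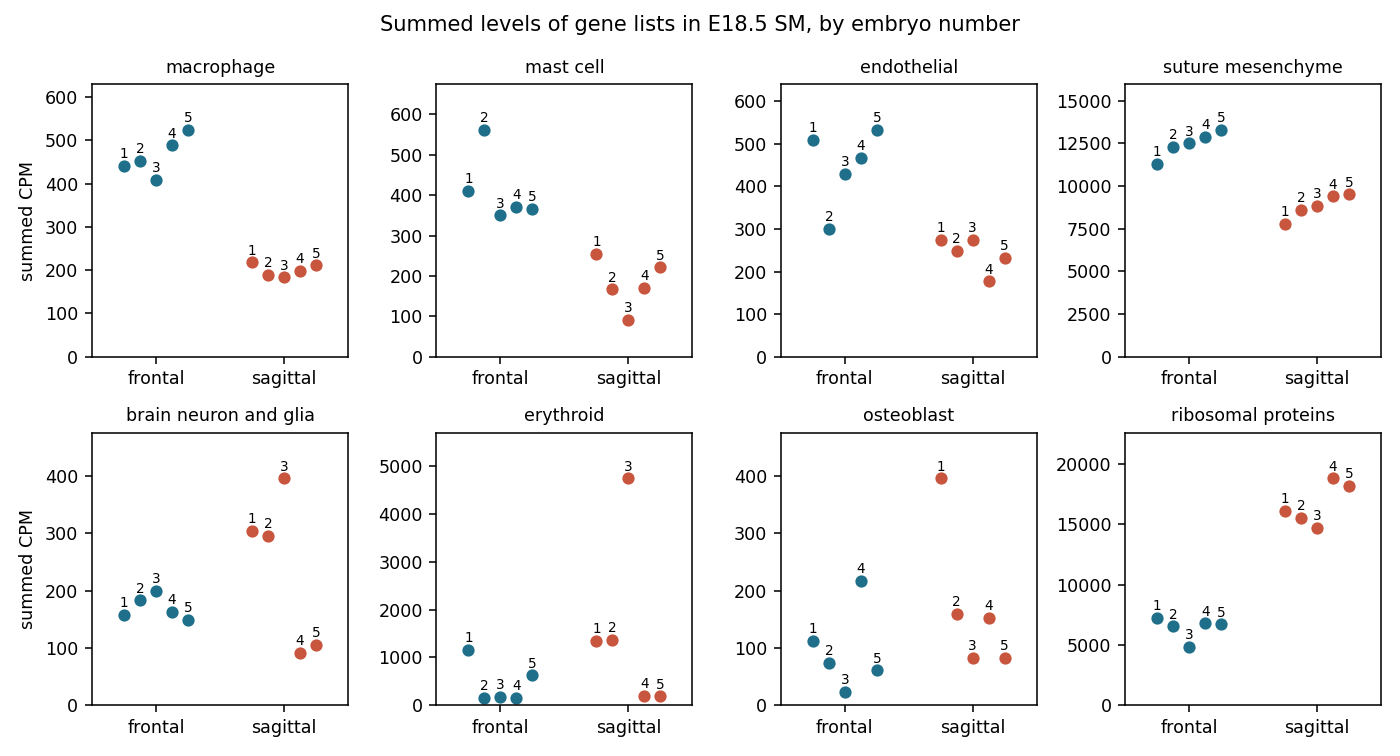
Summed CPM of 8 gene lists (y axes, linear from 0) in E18.5 SM, with 1 point per embryo and the embryo number above it, frontal in blue and sagittal in red. The macrophage, mast cell, endothelial, suture mesenchyme and ribosomal sums do not overlap between the sutures, and the brain and erythroid sums are high in sagittal embryos 1 to 3.

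Of 12 tested dura and arachnoid markers, 6 were lower in sagittal SM directly (50%, against 6.9% of all genes, median log2 -3.04) and Aldh1a2 and Fxyd5 were lower in both fits (16.7%, against 0.567%). With sagittal embryos 4 and 5 alone 2 were lower directly and Aldh1a2 in both fits, where 654 and 73 of all 19768 genes were. The summed level of the 12 markers was 732 to 1240 CPM in frontal and 520 to 550 CPM in sagittal SM. The arachnoid marker Slc22a6 was at 0 in all 5 sagittal libraries and at 0 to 1.48 CPM in the frontal libraries (23 reads, at least 11.8-fold higher in frontal SM with 3 reads as the floor over the group). Its direct call was lost without frontal embryo 1 (adjusted p = 0.0763). Fxyd5 was at 25.1 to 36.6 CPM in frontal and 13.7 to 21.2 CPM in sagittal SM. Its call less the offset (adjusted p = 0.0429) was lost without any 1 of sagittal embryos 2 to 5 or frontal embryos 1, 2, 4 or 5 (0.0509 to 0.0897). Its direct call (adjusted p = 0.0407) was lost without any 1 of sagittal embryos 2 to 5 or frontal embryos 1, 3, 4 or 5 (0.0527 to 0.107). The dermal list had 3 of 10 lower directly (30%, against 6.9% of all genes), and none with sagittal embryos 4 and 5 alone, where 654 of all 19768 genes were lower. In the skeletal muscle list none of 9 was called directly, against 17.7% of all genes (edgeR, 0 with an unadjusted p under 0.05 less the offset). The part of meninges, dermis or blood cells in the values of Aldh1a2, Crabp1 and the macrophage genes was not tested. Of 8 erythroid markers Hba-a2 and Hbb-bt were higher directly (25%, against 10.8% of all genes). Hba-a2 was at 126, 109 and 409 CPM in sagittal embryos 1 to 3 against 16.7 and 16.2 CPM in embryos 4 and 5 and 6.02 to 35.2 CPM in frontal SM. Neither gene was called with embryos 4 and 5 alone (log2 0.27, adjusted p = 0.904 for Hba-a2). The direct call of Hbb-bt (adjusted p = 0.0435) was also lost without any 1 of sagittal embryos 2 or 3 or frontal embryos 2, 3 or 4 (0.0507 to 0.553).

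Calls less the offset were often lost with part of the sagittal embryos or under another scaling. Of 63 genes named here with such a call, 33 lost it with sagittal embryos 4 and 5 alone (adjusted p of 0.0547 or more): Adamts20, Bmper, C1qc, Cntn3, Col3a1, Crabp1, Diras2, Elavl3, En1, Esm1, Fcer1g, Fgl2, Fxyd5, Hapln1, Hhip, Itih5, Lpl, Lrp1b, Meis2, Met, Mrc1, Nr2f1, Ptprt, Rmst, Scara5, Shox2, Stmn2, Tenm2, Tfap2a, Tgfbr2, Tubb3, Vstm2a and Zic4. With sagittal embryos 1 to 3 alone 17 lost it (0.0524 to 0.199): Adamts20, Bmp3, Cntn3, Emcn, En1, Esm1, Fcer1g, Fgl2, Fxyd5, Hapln1, Met, Ptprt, Scara5, Shisa6, Shox2, Trim13 and Zic4. Under total counts 13 lost it (0.0519 to 0.194): Adamts20, C1qc, Crabp1, Csf1r, Emcn, Esm1, Fcer1g, Fxyd5, Met, Mrc1, Shox2, Tfap2a and Tgfbr2. Of 96 genes named here with a direct call (Alpl not counted), 22 lost it with sagittal embryos 4 and 5 alone: Bmper, C1qc, Capn6, Col8a1, Crabp1, Dcn, Elavl3, Fgf7, Fxyd5, Gli1, Hba-a2, Hbb-bt, Hhip, Ibsp, Kit, Lpl, Mpped1, Neurod6, Six2, Slc22a6, Tfap2a and Tubb3. With embryos 1 to 3 alone 9 lost the direct call (Capn6, Col8a1, Fgf9, Fxyd5, Kit, Scx, Slc22a6, Trim13 and Zic5), and under total counts 3 did (Fxyd5, Hbb-bt and Kit). Fits on part of the embryos have fewer samples.

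The control libraries allowed the 2 sutures to be compared inside each library set, where no difference between sets enters. Complete sutures hold OF as well as SM, each set has 1 library per suture, and the labels do not say whether the 4 libraries of a suture came from separate tissue, so their p-values measure a spread that may be technical. Complete sagittal and complete frontal suture differed at 120 genes (0.607%), 85 higher (0.43%) and 35 lower (0.177%) in sagittal; under total counts the split was 39 higher and 70 lower. Leaving out 1 of sets C, IF, L or S left 41, 49, 47 and 43 genes. The same controls set the offset of SM, so the values below stand beside those of SM and are no independent repeat. Pax1 was at 25.3, 17.5, 12.9 and 25.3 CPM against 3.81, 1.92, 1.59 and 3.14 CPM (log2 2.97, adjusted p = 0.00431). The sutures were separate in every set.

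**Figure D5:**
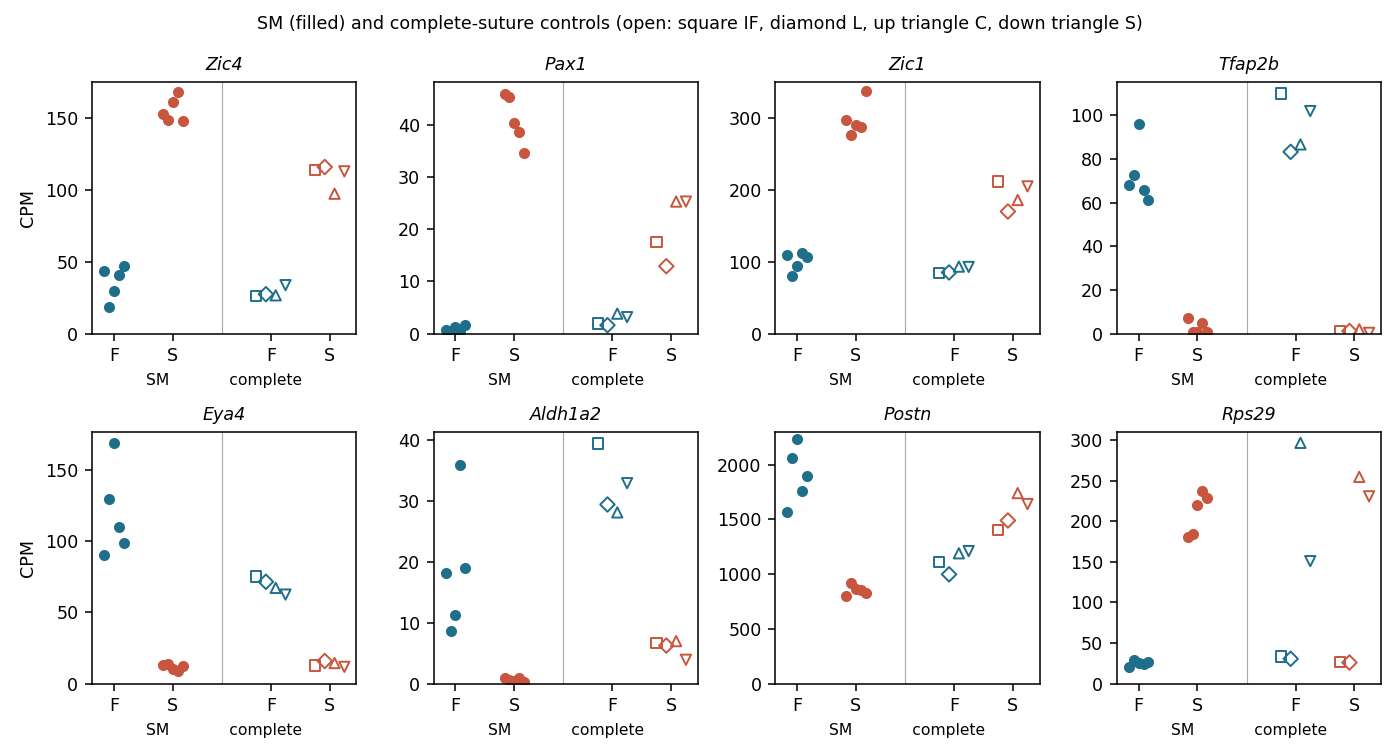
CPM of 8 genes in frontal (F, blue) and sagittal (S, red) suture, for SM by embryo (filled, 5 per suture) and for complete-suture controls (open, 1 library per set, shaped by set); y axes are linear from 0. The sutures separate in every control set for Zic4, Pax1, Zic1, Tfap2b, Eya4 and Aldh1a2, whereas Rps29 separates by set, and Postn, lower in sagittal SM, was not called in complete sutures (adjusted p = 0.514).

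Zic1 was at 186, 212, 170 and 205 CPM in complete sagittal and 93.2, 84.3, 85.1 and 92.7 CPM in complete frontal suture (log2 1.12, adjusted p = 0.000205), and Zic4 at 97.4 to 116 CPM and 25.9 to 33.7 CPM (log2 1.96, adjusted p = 0.0022). In the other direction, Tfap2b was at 1.92, 1.19, 1.14 and 0.312 CPM in sagittal and 86.7, 110, 83.3 and 102 CPM in frontal (log2 -6.41, adjusted p = 1.45e-06). Eya4 was at 11.7 to 15.8 CPM against 62.5 to 75.2 CPM (log2 -2.34, adjusted p = 0.000159) and Aldh1a2 at 3.90 to 6.96 CPM against 28.1 to 39.4 CPM (log2 -2.47, adjusted p = 0.0305). Sox5, a chondrogenic and mesenchymal Sox factor, and Palld, an actin-bundling protein gene, were higher in sagittal in complete sutures (log2 1.08 and 1.25, adjusted p = 0.00271 and 8.35e-10) and in SM less the offset (log2 1.42 and 1.00, adjusted p = 0.00206 and 0.000545). Both were named after their values were seen. For other genes the SM and the complete sutures gave different values, and the difference between the 2 comparisons was not tested. Postn had a log2 difference of 0.47 (adjusted p = 0.514) in complete sutures. Hapln1, a cartilage link protein gene, was 1.42 higher on the log2 scale in complete sagittal suture (adjusted p = 0.000492) but lower in sagittal SM directly, at 13.6 to 20.3 CPM against 30.2 to 72.4 CPM (log2 -1.37, adjusted p = 3.23e-05). The 13 chondrocyte markers summed to 1420 to 1900 CPM in complete sagittal and 324 to 386 CPM in complete frontal suture, against 402 to 472 CPM in sagittal SM and 287 to 423 CPM in frontal SM. Col2a1, the main cartilage collagen, was at 475 to 776 CPM in complete sagittal suture but 36.1 to 47.3 CPM in sagittal SM. Every complete sagittal library was above every SM library for this list.

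The SM was next set against the OF of the same embryos, since SM and OF of one suture share embryos and the letters of their titles, and an offset common to both cancels. The difference between SM and OF was unequal between the sutures at 554 genes (2.8%), 242 with a larger SM excess in the sagittal suture (1.22%) and 312 with a smaller one (1.58%). With embryo as a block and the fit limited to the 20 libraries of E18.5, which changes both the block and the libraries, there were 969. The count fell to 195, 283, 287 and 316 without frontal embryo 5, frontal embryo 2, sagittal embryo 2 and sagittal embryo 5, rose to 837 without frontal embryo 3, and fell to 81 with sagittal embryos 4 and 5 alone. This measure asks for a gene that is higher in SM than in OF more in one suture than in the other, so a gene raised equally in both compartments of the sagittal suture is not called. Lrp1b had a larger SM excess in the sagittal suture (log2 4.14, adjusted p = 0.00445). It was at 109 to 126 CPM in sagittal SM but 2.47 to 4.28 CPM in parietal OF, with 5.78 to 12.7 CPM and 1.04 to 7.83 CPM in frontal SM and OF. Cntn3, an adhesion molecule gene, had 22.3 to 33.9 CPM in sagittal SM, 1.16 to 2.40 CPM in its OF, 0.875 to 4.91 CPM in frontal SM and 1.21 to 3.40 CPM in frontal OF (log2 3.79, adjusted p = 0.0169).

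Zic1 also had a larger SM excess in the sagittal suture than in the frontal suture (edgeR, log2 1.07, adjusted p = 0.0112). It was at 67.7 to 95.2 CPM in parietal OF and 45.7 to 62.7 CPM in frontal OF, each below the SM of its suture. Pax1 was not called (log2 0.09, adjusted p = 0.995) and was also higher in the parietal OF of the sagittal suture (7.77 to 12.3 CPM) than in frontal OF (0 to 0.474 CPM). Acta2 had the opposite pattern, with overlapping levels in the SM groups but 89.6 to 180 CPM in parietal OF and 14.7 to 28.1 CPM in frontal OF (log2 -2.54, adjusted p = 0.000258). Six2 was at 38.9 to 61.7 CPM in sagittal SM and 1.47 to 11.1 CPM in parietal OF, while frontal OF kept 35.4 to 65.0 CPM (log2 2.22, adjusted p = 0.000119). Epyc, a small leucine-rich proteoglycan gene of cartilage and tendon, was at 9.76 to 18.7 CPM in sagittal SM against 0.244 to 2.47 CPM in its OF and did not separate frontal SM from frontal OF (1.86 to 17.9 and 3.89 to 17.5 CPM; log2 4.00, adjusted p = 0.00817). Hspb8 (log2 -2.86, adjusted p = 0.0357) and Tnfrsf11a, which encodes RANK (log2 -2.60, adjusted p = 0.00178), had a smaller SM to OF ratio in the sagittal suture.

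At E16.5, in other embryos, sagittal SM differed directly from frontal SM at 3074 genes (15.6%), 1847 higher (9.34%) and 1227 lower (6.21%); with median-ratio size factors the split was 1585 and 1596 and under total counts 1361 and 1568. Of the 199 genes called in both fits at E18.5, 145 were called at E16.5 in the same direction, 55 higher and 90 lower. Titles at this age carry the same letters for each suture, but no control library is of E16.5, so no offset was taken off. Pax1 was at 2.31, 1.66, 0.817, 1.68 and 0.926 CPM in frontal and 36.8, 27.1, 21.0, 22.5 and 25.3 CPM in sagittal SM at E16.5 (log2 4.21, adjusted p = 2.11e-07). Zic1 was at 126 to 145 CPM and 299 to 356 CPM (log2 1.33), Tac1 at 3.90 to 8.47 CPM and 117 to 164 CPM (log2 4.88). Eya4 was at 67.7 to 103 CPM and 7.36 to 11.6 CPM (log2 -3.16) and Aldh1a2 at 17.6 to 37.8 CPM and 0.126 to 0.829 CPM (log2 -5.71). None of these overlapped between the sutures at E16.5.

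The difference between the sutures itself differed between the ages at 85 genes (0.43%), 70 with a larger sagittal excess at E18.5 (0.354%) and 15 with a smaller one (0.0759%), at 80 and 5 under total counts, and at 12 and 17 with voom and limma, where the split turned round. A smaller excess includes values that changed sign or became more negative. The count was 42 without frontal embryo 2 of E16.5, 45 without sagittal embryo 3 and 41 without sagittal embryo 4 of E16.5. Of the E18.5 embryos, leaving out sagittal embryo 1, 2 or 3 gave 53, 53 and 46, and leaving out frontal embryo 2 or 3 gave 44 and 40. With sagittal embryos 4 and 5 alone at E18.5 the count was 14, 5 with a larger sagittal excess and 9 with a smaller one. The 3 strongest increases were Neurod6, Mpped1 and Elavl3, which rest on sagittal embryos 1 to 3 as described above and were not called with embryos 4 and 5 alone (adjusted p of 1 each) or with voom (adjusted p = 0.0626 to 0.199). Neurod6 was not called with DESeq2 either (adjusted p = 0.0889). These 3 genes had 1, 1 and 2 reads over the frontal SM libraries of E18.5, so their size and rank rest on counts near 0. The call of Mpped1 was also lost without sagittal embryo 3 or frontal embryo 2 or 3 of E18.5 or sagittal embryo 4 of E16.5 (0.0526 to 0.0596). Shisa6 was at 4.48 to 8.0 CPM in frontal and 3.53 to 8.73 CPM in sagittal SM at E16.5, and at 0.328 to 2.14 CPM and 16.2 to 37.1 CPM at E18.5 (log2 difference of differences 4.22, adjusted p = 0.0346). That call was lost in 13 of 20 fits without 1 embryo (adjusted p = 0.0521 to 0.0862): sagittal embryo 1, 2 or 5 or frontal embryo 1, 2, 3 or 5 of E18.5, and sagittal embryo 2, 3, 4 or 5 or frontal embryo 2 or 3 of E16.5. It was also lost with DESeq2 (0.0556) and with either sagittal litter of E18.5 alone (0.0936 and 0.151). Tenm2 had a log2 difference of 1.23 (adjusted p = 0.159) at E16.5 and 5.06 at E18.5 (difference 3.83, adjusted p = 0.0212). It was not called with voom (0.253), with sagittal embryos 4 and 5 alone (0.754), or without sagittal embryo 1 or 3 or frontal embryo 3 of E18.5 or sagittal embryo 3 or 4 or frontal embryo 3 of E16.5 (0.0501 to 0.0864). Prelp was at 47.1 to 63.4 CPM in frontal and 36.0 to 53.1 CPM in sagittal SM at E16.5, against 115 to 156 CPM and 17.6 to 36.0 CPM at E18.5 (difference -1.97, adjusted p = 0.0295). That call was lost in 12 of 20 fits without 1 embryo (0.051 to 0.0706): sagittal embryo 2, 3, 4 or 5 or frontal embryo 2 or 3 of E18.5, and sagittal embryo 1, 3 or 4 or frontal embryo 2, 3 or 5 of E16.5. It was also lost under total counts (0.0766) and with either sagittal litter alone (0.136 and 0.203). Capn6, a calpain of embryonic muscle and mesenchyme, had values of opposite sign: it was higher in sagittal SM at E16.5 (223 to 274 against 52.3 to 134 CPM, log2 1.62) and lower at E18.5 (376 to 408 against 510 to 691 CPM, log2 -0.60), a difference of -2.22 (adjusted p = 3.58e-08) that kept its call in all 20 fits without 1 embryo and with either litter. The E18.5 call of Capn6 was lost without frontal embryo 3 (adjusted p = 0.0664) and with either sagittal litter alone (adjusted p = 0.0965 and 0.145). Ndufa4l2, a hypoxia-induced mitochondrial protein gene, was 3.85 higher on the log2 scale in sagittal SM at E16.5 and 1.45 higher at E18.5 (difference -2.41, adjusted p = 0.0127), with a set offset of 1.29 (adjusted p = 0.0271). The difference between ages was not called with voom (adjusted p = 0.0546) or with sagittal embryos 4 and 5 alone (adjusted p = 0.305).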

How the data were processed

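Laser-captured tissue of 100 libraries and 16 complete-suture control libraries were used, of which 10 hold the SM of the frontal and sagittal sutures at E18.5; second libraries of coronal samples and single cells were not used here. The authors amplified RNA with the Ovation RNA-Seq System V2, made Nextera XT libraries, trimmed reads with cutadapt, aligned them to mm10 with STAR 2.5.3a and counted them per gene on GENCODE vM22 with featureCounts 1.6.4 without regard to strand. The deposited values are these raw counts. Amplified reads without molecular identifiers are not independent molecules, so counting intervals cover counting error only. Totals were 13162255 to 16295927 in sagittal SM, 7487020 to 11934879 in frontal SM, 14088921 to 14952534 in control set S and 8903413 to 11621958 in set IF.

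Genes at 1 CPM or more in over 10% of the 100 captured libraries were kept (19768). Separate edgeR 4.0.16 quasi-likelihood models (R 4.3.3, TMM) were fitted. The direct comparisons at either age, between ages and relative to OF used the 100 captured libraries, with a mean per group. The set offset, the values less the offset and the complete sutures came from a fit over all 116 libraries. That fit had a mean per captured group and additive terms for set and suture in the controls. P-values were adjusted by Benjamini-Hochberg and called under 0.05, and SE is the absolute log2 fold change over the root of F. Single genes were also compared over embryos by an exact two-sided permutation test of mean log2(CPM + 0.5). Alternatives included DESeq2 1.42.0, voom with limma 3.58.1, other scalings, filters and controls. They also left out each sagittal or frontal embryo, either sagittal litter of E18.5 or, for complete sutures, each control set. The frontal litter of embryos 1, 2 and 4 was not left out, and litters of E16.5 were not varied. For the difference between ages, leaving out E18.5 embryos or sagittal litters was added after seeing the data. The tests were also run on simulated counts, whose outcome is not reported here.

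Members and gene lists were chosen with earlier results of these data known. Named genes were the 12 strongest in each direction among genes called in both fits with groups that do not overlap and at least 5 CPM in the higher group (predicted gene models and sex-linked genes left out), up to 3 called members of each list, a fixed list of suture genes, and up to 3 genes per direction for the comparisons with OF and E16.5. En1, Meis2, Nr2f1, Zic2, Zic4, Zic5, Sox5, C1qc, Fxyd5, Bmper, Tgfbr2, Tubb3, Kcnrg, Trim13, Dleu2, Mest, Cxcl12, Sema3d, Palld, Enpp2, Negr1 and Col2a1 were chosen after their values were seen. Some genes that met these rules are not reported here. SM and OF of an embryo share its number, and their residuals correlated at -0.163 to 0.262 (over 0.1 in 6 of 10 embryos). The pairing of SM and OF comes from the embryo named in the labels, whereas replicate numbers link no embryos between sutures.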

Additional observations from a re-analysis of the deposited data

Results flagged for a closer look

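An embryo stood apart from the other 4 of its group, by a gap above 0.71 of the group's range, in 22 of 248 groups of values (8.9%), where chance flags about 1 in 20. With 0 reads in 4 embryos any single read is flagged, so that rate does not apply to such genes. In frontal SM, embryo 1 was apart for Ostn and Neurod6 (0.106 CPM or 1 read each, against 0 reads in the other 4) and for the osteoclast sum (95.7 CPM). Frontal embryo 2 was apart for Ptprb (120 CPM), Negr1 (2.62 CPM) and the mast cell sum (562 CPM). Frontal embryo 3 was apart for Csf1r (58.5 CPM), Col8a1 (2540 CPM), Lmx1b (31.1 CPM), the dura and arachnoid sum (1240 CPM) and the Schwann cell and melanocyte sum (19.5 CPM). Frontal embryo 4 was apart for Tubb3 (0.742 CPM, 9 reads against 0 or 1). Frontal embryo 5 was apart for Aldh1a3 (11.5 CPM), Mrc1 (160 CPM), Mpped1 (0.098 CPM, 1 read against 0) and the skeletal muscle sum (79.1 CPM). In sagittal SM, embryo 1 was apart for the osteoblast sum (396 CPM), embryo 2 for C1qc (7.62 CPM), embryo 3 for Hba-a2 (409 CPM), Hbb-bt (639 CPM) and the erythroid sum (4740 CPM), and embryo 5 for Negr1 (48.1 CPM).

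Among the genes named here, 11 of the 85 whose log2 difference between sagittal and frontal SM differed between E18.5 and E16.5 (edgeR interaction, adjusted p under 0.05) are given. It was larger at E18.5 for Neurod6 (12.14), Mpped1 (10.69), Elavl3 (10.14), Tubb3 (7.54), Shisa6 (4.22), Tenm2 (3.83), Bmper (2.11) and Nes (1.75). The signed value was lower at E18.5 for Ndufa4l2 (-2.41), Capn6 (-2.22) and Prelp (-1.97). Ndufa4l2 had a smaller sagittal excess, Capn6 changed sign and Prelp fell further below frontal SM. In frontal SM of E18.5 Neurod6, Mpped1 and Elavl3 had 1, 1 and 2 reads in all, so the size of their values rests on counts near 0. Neurod6, Mpped1, Elavl3, Tubb3, Tenm2 and Bmper were each higher in sagittal embryos 1 to 3 of E18.5 than in embryos 4 and 5, and the part of that split in these differences was not tested.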

How the results depend on the processing

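The counts of genes called for sagittal against frontal SM stayed within 1.5 times of 3507 directly and 214 less the set offset under DESeq2, voom, other scalings and filters, and when 1 embryo was left out (2815 to 3256 and 166 to 221, and 152 to 204 in both). With the replicate number as a block they were 3527 and 223. They moved with the litters (first 2097, second 2243 directly, second 133 less the offset and 121 in both), with the SM libraries alone (7250), with SM and controls alone (2016 less the offset, 1100 in both), and with the controls that set the offset: 35 and 34 in both for frontal and sagittal controls only, and 114, 124, 125 and 125 (106, 115, 117 and 117 in both) without complete coronal, frontal, lambdoid or sagittal suture. Relative to OF the count of 554 was 938 with DESeq2, 354 with total counts, 303 with voom, 969 with the embryo as replicate block in a fit of the 20 libraries of E18.5 (both changed at once), 181 and 81 with the first and second litter, and 195 to 837 when 1 embryo was left out. Complete sutures (120) gave 2.0e2 (rounded to 2 digits) with voom and 41, 49, 47 and 43 without set C, IF, L or S. At E16.5 (3074) leaving out 1 embryo gave 2569 to 2805, and the difference between ages (85) gave 29 with voom (12 higher and 17 lower), 40 to 94 without 1 embryo of either age and 14 with the second litter. The cause of these changes was not tested, beyond fewer samples in those that leave samples out.

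Scaling by total counts gave 143 higher and 56 lower less the offset, 120 and 53 in both, 39 and 70 in complete sutures, 1361 and 1568 at E16.5 and 80 and 5 between ages. With only the second litter, direct log2 values turned for Hbb-bt (-1.36), Neurod6 (-1.82), Mpped1 (-1.80) and Tubb3 (-2.29, and -2.97 less the offset). Of 71 genes examined singly with a call less the offset, 16 kept it under every alternative computed for them (up to 25) and 48 in every fit without 1 embryo; directly these were 93 (up to 20 alternatives) and 119 of 133. Frontal depth, library set and litter cannot be told apart from suture in the direct comparison. Less the offset, litter still cannot be told apart from suture, since no litter was shared between the sutures. Both fits treat littermates as separate samples.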

Other observations

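Of 26 tested genes of glycolysis and the hypoxia response, 12 were higher and 2 lower in sagittal SM directly (53.8%, against 17.7% of all genes, median log2 0.65 against -0.02 over all genes). P4ha2, a collagen prolyl hydroxylase gene, was higher in both fits (3.85% of the list, against 1.01% of all genes). P4ha2 was at 46.2, 30.6, 17.2, 52.0 and 52.0 CPM in frontal and 121, 127, 107, 126 and 126 CPM in sagittal SM, without overlap (log2 1.25, SE 0.29, adjusted p = 0.00882 less the offset). Hk2, the inducible hexokinase gene, was at 15.4 ± 1.95 CPM (SD, n = 5) in frontal and 32.6 to 68.7 CPM in sagittal SM, with a log2 difference of 1.79 (adjusted p = 1.8e-09) directly, a set offset of 0.80 (adjusted p = 0.0239) and 0.95 (adjusted p = 0.167) less the offset. Of 34 cell cycle genes 6 were higher and 1 lower directly (20.6%, close to the 17.7% of all genes), and less the offset none had an unadjusted p under 0.05 (edgeR, median 0.00). Birc5 (survivin) was at 7.65 to 14.0 CPM and 16.4 to 24.4 CPM, with a direct log2 difference of 1.02 (adjusted p = 0.00135) and a set offset of 0.98 (adjusted p = 0.00796). Of 21 immediate early and heat shock genes, 6 were higher and 1 lower directly (33.3%, against 17.7%) and none passed less the offset (edgeR, 3 with an unadjusted p under 0.05).

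Of 23 tendon and ligament genes 4 were higher and 3 lower directly (30.4%, against 17.7%), and Postn was lower in both fits (4.35%, against 1.01%). Scx (scleraxis), the tendon progenitor factor, was at 4.12 to 7.65 CPM in frontal and 16.7 to 56.2 CPM in sagittal SM without overlap, and highest in sagittal embryos 4 and 5. Its log2 difference was 2.5 (adjusted p = 0.000905) directly, but 1.01 (adjusted p = 0.971) less the offset. Of 15 smooth muscle contractile genes 4 were higher and 3 lower directly (46.7%, against 17.7%). Tagln (transgelin) was at 1.30 to 2.35 CPM and 10.3 to 20 CPM, with log2 differences of 3.25 (adjusted p = 1.6e-05) directly and 1.6 (adjusted p = 0.651) less the offset. Of 4 adipocyte markers Lpl, lipoprotein lipase, was lower directly and in both fits (25%, against 17.7% and 1.01% of all genes). It was at 13.6 to 22.2 CPM in frontal and 4.62 to 6.05 CPM in sagittal SM (log2 -2.39, adjusted p = 0.0127 less the offset). With sagittal embryos 4 and 5 alone Lpl was called neither directly (adjusted p = 0.083) nor less the offset (adjusted p = 0.147). Of 7 pericyte markers 1 was higher and 2 lower directly (42.9%, against 17.7%). None of 5 keratinocyte or 7 Schwann cell and melanocyte markers was called directly, against 17.7% of all genes. Less the offset none passed either, against 1.08% of all genes (edgeR, 1 and 0 with an unadjusted p under 0.05). In lists this short, none called is close to these shares.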
